A study of Homo sapiens with 12 samples.

Results

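The human fibroblast line BJ was depleted of EZH2 by siRNA and given back an siRNA-resistant T350A form of it, in which alanine replaces a threonine. The comparison described here sets 3 arrays of cells given the mutant (T350A re-expression) against 3 arrays of cells given a control virus (si-EZH2), 6 of the 12 arrays in the study. Cells of both groups received lentivirus for 72 h and then the siRNA against EZH2 for 60 h, so the depletion was common to both and only the viral insert differed. The other 6 arrays carried control virus with a control siRNA (si-Control, 3 arrays) or virus with siRNA-resistant wild-type EZH2 and the siRNA against EZH2 (EZH2 re-expression, 3 arrays). The arrays were chosen by their titles alone. The promoter of the viral insert, the use of selection and the number of clones are not given in the sources used here. No label states that the replicates were separate cultures. The p-values therefore reflect the scatter among these arrays, which may be technical, and the small number of arrays limits the precision.

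EZH2 is the catalytic subunit of Polycomb repressive complex 2 (PRC2), which methylates histone H3 on lysine 27 and so keeps genes silent. Its partners EED and SUZ12 are needed for activity, and EZH1 is a related enzyme that can take its place in the complex. The study asks how phosphorylation of EZH2 at the threonine bears on gene repression, and the alanine in the mutant cannot be phosphorylated.

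Of 47231 probes, 20658 to 21910 were detected on each array (43.7% to 46.4%), and 23313 were tested, namely those that 3 or more of the 12 arrays detected (detection p under 0.05). Levels are normalised intensities on the log2 scale, and a difference is T350A re-expression minus si-EZH2 on that scale unless stated otherwise. All 12 fibroblast markers, among them COL1A1, THY1 and PDGFRB, were detected on every array, and their summed linear intensity was 194000 to 198555 on the si-EZH2 arrays and 178469 to 186504 on the T350A arrays. The median difference of these 12 was -0.12, and 0 passed the test. In bulk RNA, fewer cells of a type and less RNA per cell cannot be told apart. The defining markers CDH1, KRT5 and KRT14 of epithelium, CDH5, KDR and VWF of endothelium, and PTPRC, CD3E and LYZ of leukocytes were not detected on any array. The summed intensity of the 11 epithelial markers was 4074 to 4340 with si-EZH2 and 4776 to 4904 with T350A. Most of that sum came from KRT19 (mean level 12.07), which differed by 0.24 (SE 0.09). Of the 6 epithelial markers measured, 3 were higher and 3 lower, with a median of 0.03, and EPCAM differed by -0.31. CD14, a leukocyte marker that was detected, had a difference of 0.53 (SE 0.11, limma adjusted p = 0.0626), and the part of such cells in the results below was not tested.

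The mutant transcript was present. On the first of the 3 EZH2 probes (ILMN_1652913), levels were 5.46, 5.59 and 5.12 with si-EZH2 and 7.98, 8.06 and 7.93 with T350A. The second probe (ILMN_2364529) was detected on 0 of the 3 si-EZH2 arrays and on all 3 T350A arrays, at 7.20, 7.04 and 7.32. Both groups were fully separated on both probes. EZH2 rose by 2.60 (SE 0.13) on the first probe, a 6.07-fold rise with a limma adjusted p of 1.46e-08, and was at least 4.72-fold higher on the second (adjusted p = 1.46e-08). Both probes also read above the si-Control arrays, whose values were 6.43, 6.13 and 6.41 on the first and 5.86, 5.42 and 5.62 on the second. The third probe (ILMN_1708105) read 5.56, 5.76 and 5.77 with si-EZH2, 5.90, 6.14 and 5.70 with T350A, and 6.68, 6.96 and 6.72 with si-Control. The T350A and si-EZH2 arrays overlapped on that probe, with a difference of 0.22 (SE 0.13, adjusted p = 0.487).

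The other subunits and partners of PRC2 stayed below the threshold. Of 12 measured, 1 rose (EZH2 itself) and the other 11 were not called, with differences from -0.19 to 0.39. SUZ12 differed by -0.14 (SE 0.12), EED by -0.19 (SE 0.12), the histone-binding subunit RBBP7 by -0.19 (SE 0.13) and EZH1 by 0.39 (SE 0.19). EZH1 was detected on 1 of 3 si-EZH2 arrays and 2 of 3 T350A arrays.

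Across the transcriptome the differences were small. At an adjusted p under 0.05, 24 probes were called (0.103% of those tested), 11 higher (0.0472%) and 13 lower (0.0558%) with the mutant, and the unadjusted p was under 0.05 for 3200 probes (13.7%). The T350A and si-EZH2 arrays did not overlap for 4340 probes (18.6%), which included all 24 called. Taking the brightest probe of each of 12640 genes, the SD of the differences was 0.18 and the median size was 0.11, around a median of -0.00491. Only 51 genes reached 1.5-fold (0.403%), 19 higher (0.15%) and 32 lower (0.253%), and 1 gene in each direction reached 2-fold, EZH2 upward and IL24 downward. Large differences were more frequent among dim genes. Of the 51, 21 had a mean level under 6 and 4 had a level of 10 or more, and the SD of the differences was 0.20 in the first class and 0.16 in the last. The plot of difference against level shows this shape.

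**Figure D1:**
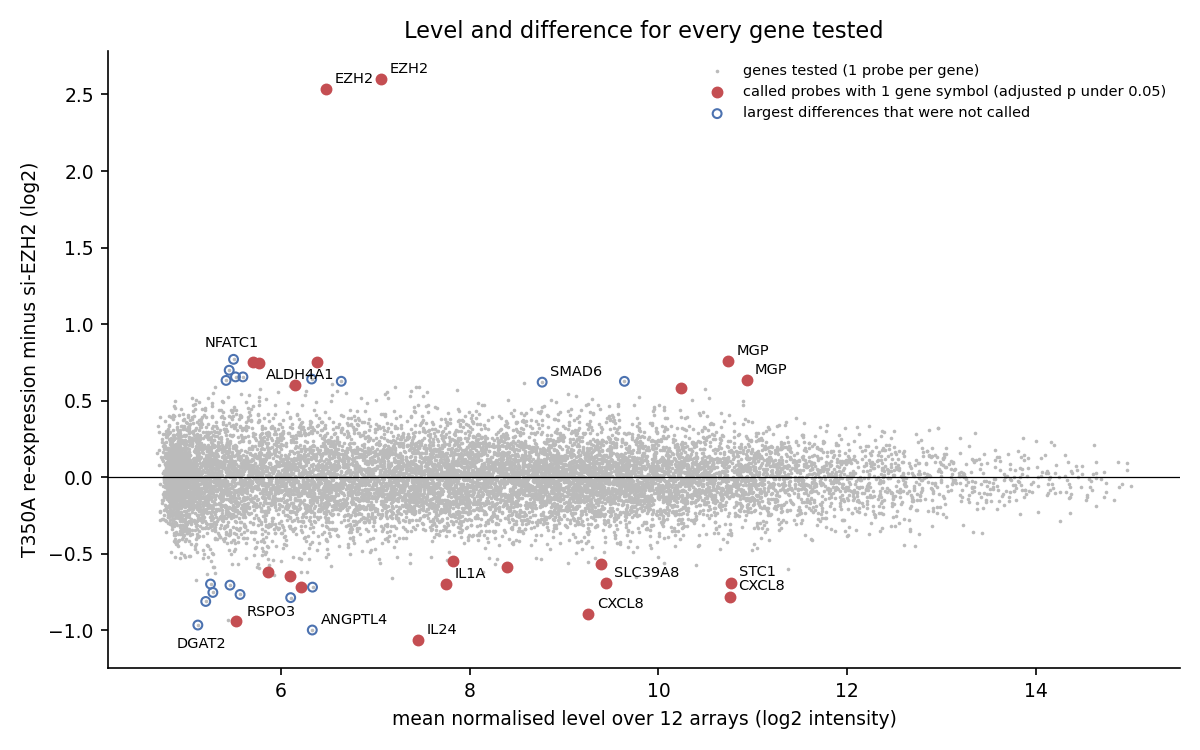
Difference between T350A re-expression and si-EZH2 (log2, vertical axis) against the mean level over 12 arrays (log2 intensity, horizontal axis), for 12640 genes (grey), the called probes with 1 gene symbol (red) and the largest differences that were not called (blue rings). The 2 EZH2 probes stand above 2.5, IL24 and RSPO3 lie lowest among the called probes, and most grey points lie within 0.5 of 0.

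The 24 called probes covered 19 genes by symbol, and 2 had no symbol. The adjusted p of 11 of them was between 0.04 and 0.05. Another 15 probes lay between 0.05 and 0.055, among them SMAD6 at 0.62 and ID3 at 0.51, both with an adjusted p of 0.0504. The threshold thus ran through a dense group of probes. When each of the 12 arrays was left out in turn, the number called ranged from 5, without si-EZH2 replicate 1, to 31, without si-Control replicate 2. EZH2, IL24, CXCL8 and MGP were called in all 12 of these fits.

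Among the genes that fell were the cytokines CXCL8, IL24 and IL1A. CXCL8 (interleukin 8), a chemokine that draws neutrophils, read 11.76, 11.78 and 11.76 with si-EZH2 and 10.91, 10.92 and 11.12 with T350A on its brighter probe. The si-Control arrays read 10.03, 9.85 and 9.84, so the mutant values lay between si-EZH2 and si-Control without touching either. CXCL8 fell by 0.78 (SE 0.10), 1.72-fold, with a limma adjusted p of 0.00377, and its second probe fell by 0.89 (SE 0.13, adjusted p = 0.0119).

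IL24, a cytokine of the interleukin 10 family, read 8.61, 8.54 and 8.57 with si-EZH2 and 7.49, 7.62 and 7.42 with T350A. Its si-Control values were 6.39, 6.85 and 6.62, below all 6. IL24 fell by 1.06 (SE 0.12), 2.09-fold, with an adjusted p of 0.00166. A second, dim IL24 probe overlapped between the groups, with a difference of -0.31 (SE 0.16, adjusted p = 0.430).

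IL1A, a cytokine that starts inflammatory signalling when released, read 8.49, 8.26 and 8.36 with si-EZH2 and 7.64, 7.51 and 7.87 with T350A. The groups were separate, and the si-Control arrays were lower again at 7.38, 7.25 and 7.40. IL1A fell by 0.70 (SE 0.11), 1.62-fold, with an adjusted p of 0.0312.

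NF-kappaB and AP-1 are transcription factors with textbook sites at inflammatory genes, and their motifs were looked up in the RefSeq promoter windows (GRCh38.p14, 250 bases before to 50 after the start, 300 in all) of the called genes. The letters searched were GGNNTTTCC for NF-kappaB and TGANTCA for AP-1, on both strands, and the motifs did not overlap in the windows printed. The CXCL8 window is on the plus strand at chr4:73740319-73740618, and capitals mark an AP-1 match at -137 to -131 and an NF-kappaB match at -91 to -83 from the start. The IL1A window printed is on the minus strand at chr2:112784444-112784743, and capitals mark AP-1 matches at -12 to -6 and 39 to 45. IL1A has a second window from another start (chr2:112784351-112784650), where the same matches lie at -105 to -99 and -55 to -49. The 2 windows below are of the called cytokine genes whose windows held a match, CXCL8 and IL1A. IL24 also fell but held none, and its window is not printed.
CXCL8: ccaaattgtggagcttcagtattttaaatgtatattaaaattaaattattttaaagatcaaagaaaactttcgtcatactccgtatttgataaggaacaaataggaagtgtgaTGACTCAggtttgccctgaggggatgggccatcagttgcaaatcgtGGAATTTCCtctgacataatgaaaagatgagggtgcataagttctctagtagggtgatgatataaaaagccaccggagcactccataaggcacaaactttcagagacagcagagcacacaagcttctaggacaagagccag
IL1A: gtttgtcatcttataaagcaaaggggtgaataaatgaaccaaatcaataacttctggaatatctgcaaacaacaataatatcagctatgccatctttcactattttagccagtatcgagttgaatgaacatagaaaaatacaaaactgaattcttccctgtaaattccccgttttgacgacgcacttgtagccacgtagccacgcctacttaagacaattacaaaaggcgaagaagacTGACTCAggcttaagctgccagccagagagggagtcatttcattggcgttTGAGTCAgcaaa

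The IL24 window (chr1:206897193-206897492, plus strand) holds neither motif. Among 11 genes that fell and have a window, 1 held the NF-kappaB letters and 2 the AP-1 letters, and among 4 that rose, 0 held either. Of all 35116 promoter windows, 6.26% held the NF-kappaB letters and 7.71% the AP-1 letters. A match is a run of letters and not a measured site. MGP, STC1, UROS and PSPH have no window here.

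Another set of called genes that fell encodes secreted, membrane or transport proteins. STC1, a secreted glycoprotein hormone, read 11.15, 11.37 and 11.19 with si-EZH2 and 10.71, 10.45 and 10.49 with T350A. The T350A values lay on both sides of the si-Control arrays, which read 10.60, 10.60 and 10.62. STC1 fell by 0.69 (SE 0.10, limma adjusted p = 0.018).

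SLC39A8, which imports zinc, read 10.22, 10.23 and 10.26 with si-EZH2 and 9.75, 9.43 and 9.47 with T350A, while si-Control stood at 8.48, 8.59 and 8.40. The mutant values were thus separate from both. SLC39A8 fell by 0.69 (SE 0.10, adjusted p = 0.0198), and its second probe differed by -0.64 (SE 0.15, adjusted p = 0.0842).

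RSPO3, a secreted amplifier of Wnt signalling, was dim and scattered, at 6.37, 5.58 and 5.96 with si-EZH2 and 5.27, 4.93 and 4.92 with T350A. It was detected on 2 of the 3 T350A arrays and stood at 5.55, 5.50 and 5.54 with si-Control, above all T350A values. RSPO3 fell by 0.94 (SE 0.17, adjusted p = 0.0483).

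SOD3 is the extracellular superoxide dismutase. Its levels were 8.72, 8.78 and 8.79 with si-Control, 8.84, 8.68 and 8.74 with si-EZH2, and 8.04, 8.36 and 8.09 with T350A, so the T350A arrays lay below both of these groups. Wild-type EZH2 gave 7.91, 7.88 and 7.91, lower again. SOD3 fell by 0.59 (SE 0.10, adjusted p = 0.0483) from si-EZH2, and the difference between si-EZH2 and si-Control was -0.01.

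The remaining genes that fell have roles inside the cell. SLC25A24, a mitochondrial carrier of ATP and phosphate, fell by 0.72 (SE 0.13) and PTPRN, a phosphatase-like protein of secretory granules, by 0.65 (SE 0.12), each with an adjusted p of 0.0483. YKT6, a SNARE protein of vesicle fusion, read 6.09, 6.15 and 5.91 with si-EZH2 and 5.47, 5.53 and 5.28 with T350A and fell by 0.62 (SE 0.11, adjusted p = 0.0483). Its values were 5.77, 6.03 and 5.94 with si-Control and 6.02, 6.0 and 6.16 with wild-type EZH2, so the T350A arrays were the lowest of the 12. AFF4, a scaffold of the transcription elongation machinery, fell by 0.56 (SE 0.10, adjusted p = 0.0483), and MYO9A, an unconventional myosin, fell by 0.55 (SE 0.09, adjusted p = 0.0355).

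The genes that rose beside EZH2 include a matrix protein and several metabolic enzymes. MGP, the matrix Gla protein that restrains calcification and binds BMPs, read 10.62, 10.60 and 10.78 with si-EZH2 and 11.46, 11.34 and 11.46 with T350A on one probe. With si-Control it read 9.76, 9.83 and 9.71, so the mutant arrays lay farther from control than the depleted ones. MGP rose by 0.76 (SE 0.09, adjusted p = 0.00377) on this probe and by 0.64 (SE 0.10, adjusted p = 0.0312) on the other.

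ALDH4A1, a mitochondrial enzyme of proline breakdown, read 5.29, 5.15 and 5.39 with si-EZH2 and 6.02, 6.08 and 5.98 with T350A, and rose by 0.75 (SE 0.11, adjusted p = 0.018). PSPH, which makes serine in its last step, read 5.82, 5.96 and 5.85 with si-EZH2 and 6.57, 6.56 and 6.30 with T350A, and rose by 0.60 (SE 0.11, adjusted p = 0.0483). In both genes the T350A values also exceeded every si-Control value, whose highest was 5.64 for ALDH4A1 and 5.85 for PSPH.

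UROS, an enzyme of haem synthesis, moved toward control. It read 9.58, 9.85 and 9.72 with si-EZH2, 10.28, 10.35 and 10.26 with T350A, and 10.72, 10.86 and 10.69 with si-Control, 3 groups that did not overlap. UROS rose by 0.58 (SE 0.10, adjusted p = 0.0483).

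RNFT2, a RING finger protein, rose by 0.75 (SE 0.12, adjusted p = 0.0277), and SS18, a subunit of the BAF chromatin remodelling complex, rose by 0.75 (SE 0.13, adjusted p = 0.0483) on 1 of its 4 probes. The other 3 SS18 probes differed by -0.29, -0.24 and 0.01, so the direction of SS18 depended on the probe read. The other 2 RNFT2 probes differed by -0.05 (SE 0.14) and 0.10 (SE 0.12), each by less than its SE. The other probes of ALDH4A1 differed by 0.21, 0.28 and 0.54, that of PSPH by 0.18, that of MYO9A by -0.28 and those of SLC25A24 by -0.19 and 0.00273. None of these other probes passed the test, at adjusted p-values of 0.100 or more. Some were brighter than the called probe. That of PSPH had a mean level of 8.71, against 6.15 for the called probe. The SS18 probes at -0.29 and -0.24 had levels of 9.84 and 8.75, against 5.77. The other MYO9A probe, the SLC25A24 probe at -0.19 and the ALDH4A1 probes at 0.28 and 0.54 were brighter as well. The 2 called probes without a symbol rose by 1.05 and 0.66.

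**Figure D2:**
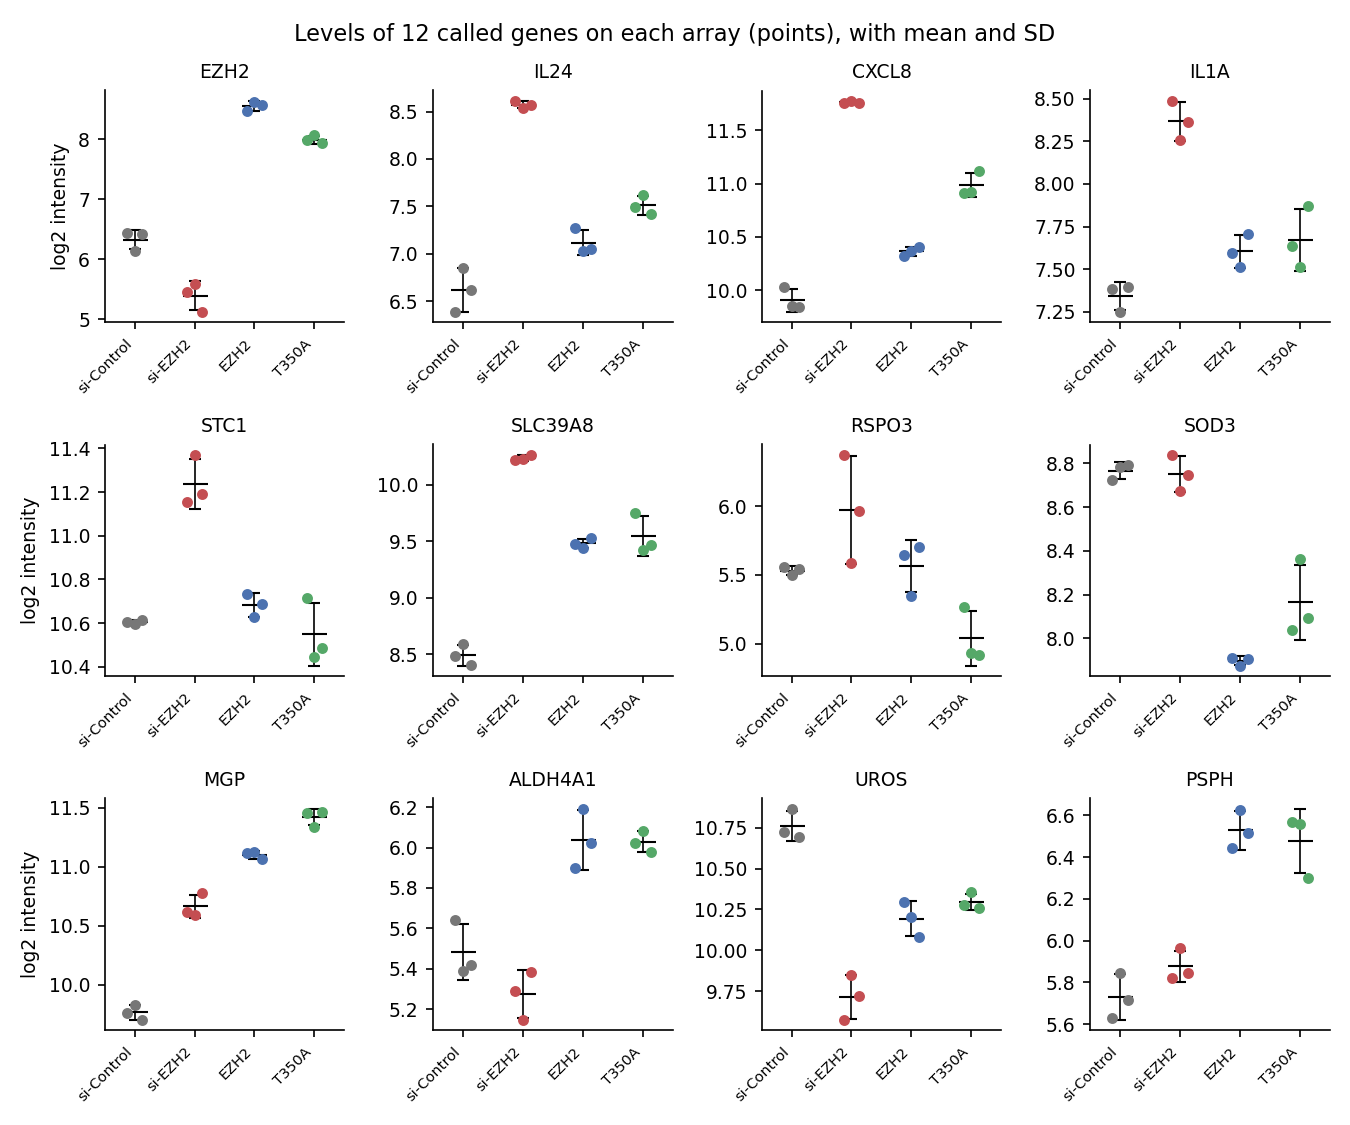
Level (log2 intensity, vertical axis) of 12 called genes on each array, as points, with the mean and SD of 3 arrays, in the 4 groups. The T350A arrays are apart from the si-EZH2 arrays in each panel, and lie between si-EZH2 and si-Control for IL24, CXCL8, IL1A, SLC39A8 and UROS.

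By size alone, further genes stood out without passing the test. The lowest was ANGPTL4, a secreted regulator of lipoprotein lipase, at -0.997 (SE 0.47, limma adjusted p = 0.362). It read 6.67, 9.27 and 6.62 with si-EZH2 and 6.55, 6.44 and 6.58 with T350A, and without replicate 2 of si-EZH2 the difference was -0.12. A second ANGPTL4 probe of similar level differed by 0.11 (SE 0.26), with overlapping groups. DGAT2, which makes triglyceride, was detected on all 3 si-EZH2 arrays and on 0 of the T350A arrays, at least 1.73-fold lower (adjusted p = 0.107). ZEB1, a transcription factor known for repressing epithelial genes, differed by -0.79 (SE 0.16), reading 6.24, 6.33 and 6.71 against 5.51, 5.63 and 5.79. HAS2, which makes hyaluronan, differed by -0.70 (SE 0.14), at 6.05, 6.39 and 6.14 against 5.43, 5.42 and 5.61, and stood at 5.09, 4.68 and 5.17 with si-Control. The glutamate transporter SLC1A3 (-0.70), OLFM2 (-0.72), MIR302C (-0.75), CPLANE1 (-0.77) and AP5B1 (-0.81) completed the lowest, with adjusted p-values from 0.0504 to 0.094. A second CPLANE1 probe differed by -0.13 (SE 0.17), with overlapping groups.

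At the other end, NFATC1, a calcium-responsive transcription factor, differed by 0.77 (SE 0.17, adjusted p = 0.0735), at 5.07, 5.20 and 5.24 with si-EZH2 and 5.54, 5.83 and 6.45 with T350A. A second, dimmer NFATC1 probe differed by 0.15 (SE 0.12), with overlapping groups. The imprinted non-coding RNA H19 differed by 0.66 (SE 0.15, adjusted p = 0.0775), at 5.43, 5.21 and 5.20 against 5.96, 5.84 and 6.0. SMAD6, an inhibitor of BMP signalling, differed by 0.62 (SE 0.11), at 8.41, 8.62 and 8.35 against 8.98, 9.31 and 8.94. SHMT1, an enzyme of serine and folate metabolism, differed by 0.63 (SE 0.13, adjusted p = 0.0677), and its other probe by -0.34. C19orf44 (0.70), ETV2 (0.66), CDKL2 (0.64), KLLN (0.63) and SNF8 (0.63) made up the rest, with adjusted p-values from 0.059 to 0.142. A second, dimmer CDKL2 probe differed by 0.32 (SE 0.14), with overlapping groups. For each gene of this and the preceding paragraph the groups did not overlap on its brightest probe, which was part of how the genes were picked.

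For pathways, 41 gene lists were described by counts and medians, with 1 probe per gene. Over all 12640 genes, 14 were called (0.111%), 4 higher (0.0316%) and 10 lower (0.0791%). By any amount, 48.8% were higher and 51.2% lower, and 9.82% of genes were higher and 11.1% lower without overlap of the groups. Of the 41 lists, the mean over members was higher on every T350A array than on every si-EZH2 array in 4 and lower in 13. The higher ones were the lists of PRC2, CDK inhibitor, haem and ribosomal protein genes. The PRC2 list holds the re-expressed EZH2 itself, and its median was -0.02, with 6 members higher and 6 lower. How often lists of arbitrary genes would separate in this way was not tested. List medians ran from -0.24 to 0.15. The chemokine median was -0.15 without si-EZH2 replicate 2, and the G2/M median was 0.10 without si-EZH2 replicate 1. The plot of medians puts chemokines and interleukins at one end and G2/M genes at the other.

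**Figure D3:**
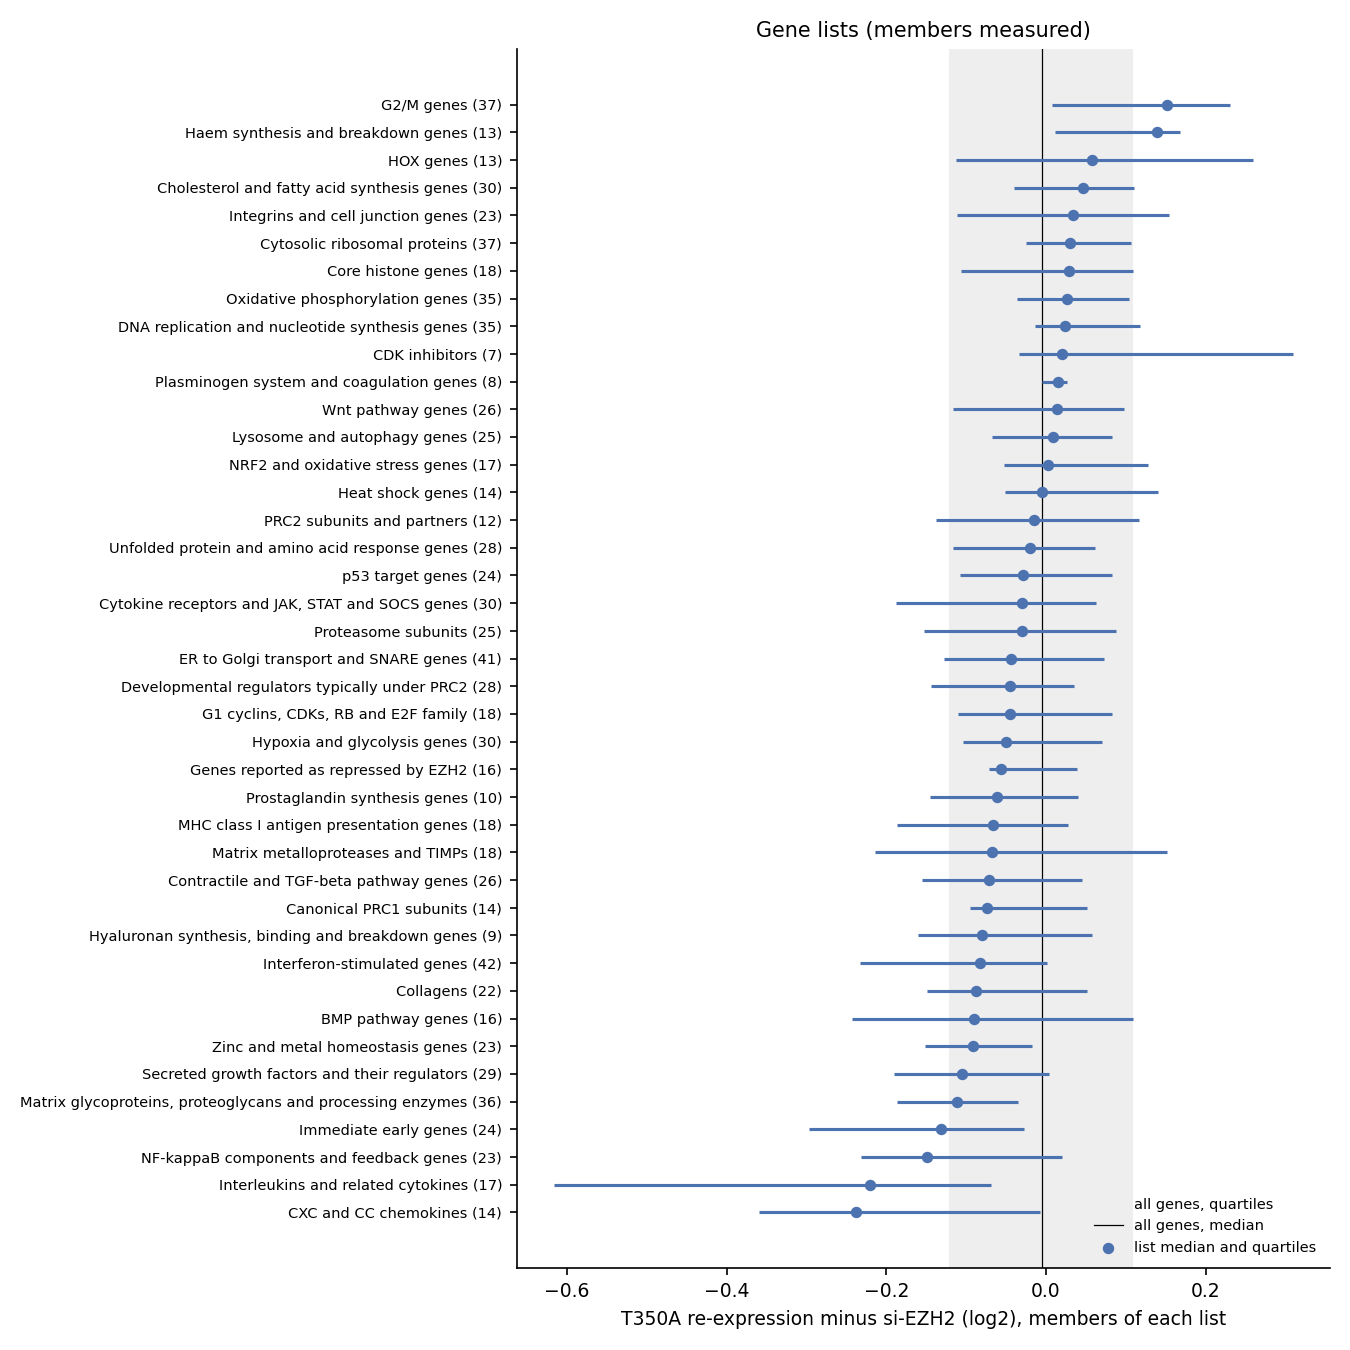
Median (point) and quartiles (line) of the difference T350A re-expression minus si-EZH2 (log2) over the measured members of 41 gene lists, with the number measured in brackets. The grey band and black line give the quartiles and median of all 12640 genes. The lowest medians are those of chemokines (-0.24) and interleukins (-0.22), and the highest is that of G2/M genes (0.15).

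Cytokine genes were the lowest lists. Of 14 chemokines measured, 1 fell (CXCL8), 0 rose and 13 were not called, and 6 were lower without overlap. Uncalled members included CCL2, which draws monocytes, at -0.37 (SE 0.11), CXCL6 at -0.42 (SE 0.12), CXCL2 at -0.31 (SE 0.12) and CCL8 at -0.32 (SE 0.12). The list mean, relative to the si-EZH2 average, was -0.15, -0.22 and -0.26 on the T350A arrays, -0.38, -0.36 and -0.38 with wild-type EZH2 and -0.80 to -0.74 with si-Control. The T350A arrays were thus lower than si-EZH2 and higher than the others.

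Of 17 interleukins and related cytokines, 2 fell (IL24 and IL1A), 0 rose, and 8 were lower without overlap, around a median of -0.22. IL1B, a cytokine related to IL1A, read 10.77, 10.55 and 10.81 with si-EZH2 and 10.28, 10.07 and 10.10 with T350A, a difference of -0.56 (SE 0.11, limma adjusted p = 0.055). IL6, which drives the acute phase response, differed by -0.65 (SE 0.14, adjusted p = 0.0735) and IL11, of the same family, by -0.66 (SE 0.15, adjusted p = 0.0842). IL6, IL11 and CXCL2 were picked after their values were seen. TNFSF18, a ligand of the TNF superfamily, differed by -0.62 (SE 0.13, adjusted p = 0.0626). With limma-trend and robust moderation, a fit that called 407 of all 23313 probes against 24 here, 6 of the 17 interleukins and 3 of the 14 chemokines were called lower. Across all alternatives the number called lower ranged from 1 to 6 for interleukins and from 0 to 3 for chemokines.

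**Figure D4:**
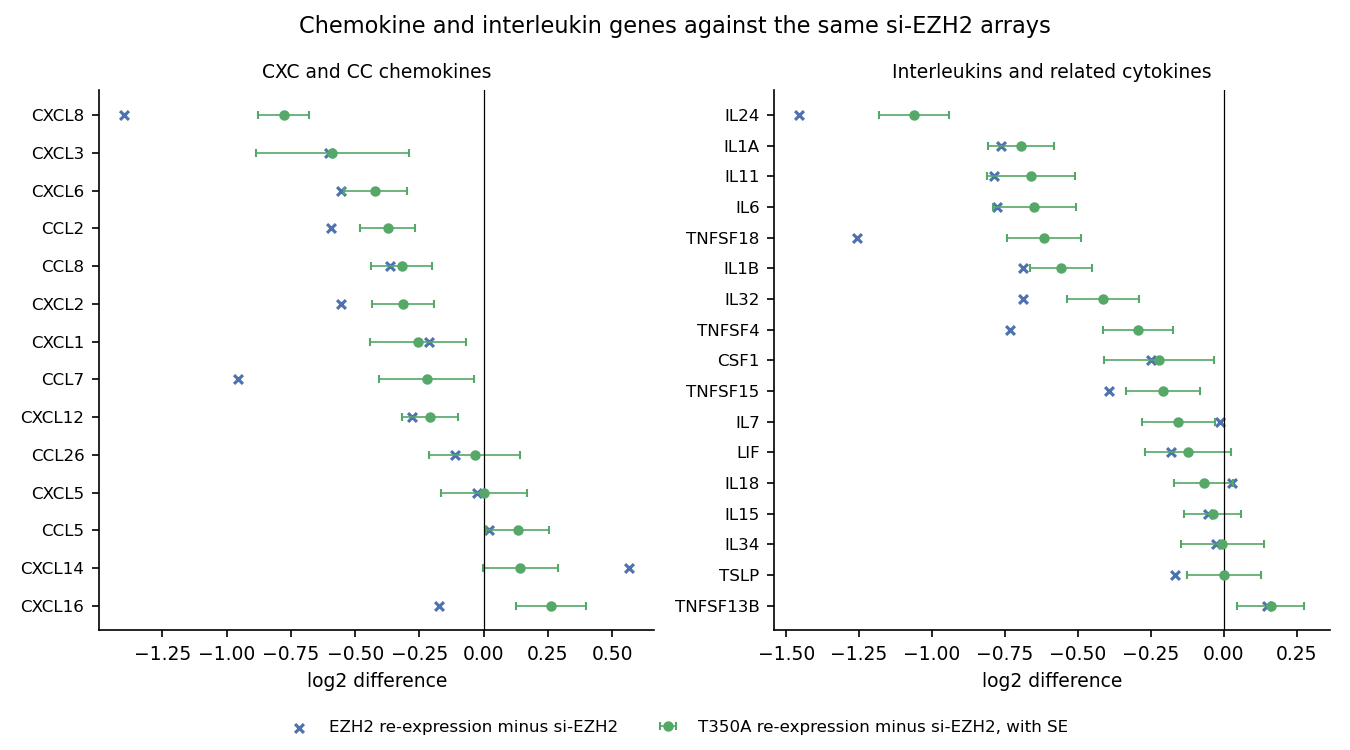
Difference from si-EZH2 (log2, horizontal axis) of each measured chemokine (left) and interleukin or related cytokine (right), for T350A re-expression with its SE (green points) and for EZH2 re-expression (blue crosses). Both series are taken against the same 3 si-EZH2 arrays. CXCL8 at -0.78 and IL24 at -1.06 are the lowest green points of their panels.

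Signalling genes around these cytokines had medians closer to 0. Among 23 NF-kappaB components and feedback genes 0 were called, the median was -0.15, and 5 were lower and 2 higher without overlap. That median was -0.05 without si-EZH2 replicate 2 and -0.09 without T350A replicate 1 or 2. RELA, the main activating subunit, differed by -0.33 (SE 0.12), the feedback inhibitor TNFAIP3 by -0.40 (SE 0.12), BCL3 by -0.33 (SE 0.09) and IRAK3 by -0.35 (SE 0.11), at adjusted p-values from 0.155 to 0.228. Of 30 cytokine receptor, JAK, STAT and SOCS genes 0 were called, with a median of -0.03. The kinase JAK2 differed by -0.55 (SE 0.12, adjusted p = 0.0735), STAT5A by -0.34 (SE 0.11) and the feedback inhibitor SOCS3 by 0.39 (SE 0.13).

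Interferon-stimulated genes showed many small differences, mostly downward. Of 42 measured, 0 were called, 31 were below 0 and 11 above, and 14 were lower and 0 higher without overlap. The median was -0.08 and the highest difference was 0.38. The RNA sensor IFIH1 differed by -0.43 (SE 0.11, adjusted p = 0.0979), USP18 by -0.42 (SE 0.13), MX2 by -0.35 (SE 0.11) and HERC6 by -0.31 (SE 0.10). The list mean was -0.10, -0.12 and -0.10 on the T350A arrays and -0.47, -0.33 and -0.43 on the si-Control arrays, against a si-EZH2 average of 0. Of 18 MHC class I antigen presentation genes 0 were called, with HLA-B at -0.24 (SE 0.12) and the peptidase ERAP2 at -0.23 (SE 0.10).

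Immediate early genes, the transcription factors and regulators that respond first to stimulation, had a median of -0.13 over 24 members and 0 calls. FOSL1, an AP-1 subunit, read 8.57, 8.45 and 8.69 with si-EZH2 and 7.74, 8.11 and 8.02 with T350A, a difference of -0.62 (SE 0.13, adjusted p = 0.0734). KLF4 differed by -0.45 (SE 0.12), JUND by -0.36 (SE 0.12) and EGR1 by -0.33 (SE 0.11). ZFP36, which destabilises cytokine mRNAs, went the other way at 0.31 (SE 0.11) and was named after its value was seen.

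Of 22 collagens 0 were called, 14 were below 0 and 8 above, 6 were lower and 1 higher without overlap, and the median was -0.09. Without si-EZH2 replicate 2 or T350A replicate 1 that median was -0.05. COL6A1 read 13.19, 12.94 and 13.27 with si-EZH2 and 12.64, 12.82 and 12.59 with T350A, a difference of -0.45 (SE 0.12, adjusted p = 0.138). COL5A3 differed by -0.38 (SE 0.12), COL6A2 by -0.35 (SE 0.11) and COL1A1 by -0.29 (SE 0.10). Of 36 glycoproteins, proteoglycans and processing enzymes 1 rose (MGP), 28 were below 0 and 8 above, and 8 were lower and 4 higher without overlap, with a median of -0.11. The proteoglycan versican (VCAN) differed by -0.35 (SE 0.11), EMILIN1 by -0.35 (SE 0.10) and the collagen-modifying enzyme PLOD2 by -0.28 (SE 0.11). Among 9 hyaluronan genes 0 were called, and TNFAIP6, which binds hyaluronan, differed by -0.57 (SE 0.15) beside HAS2 at -0.70.

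Proteases were divided. Of 18 metalloproteases and TIMPs 0 were called, with 4 higher and 4 lower without overlap. MMP11 differed by 0.58 (SE 0.13, adjusted p = 0.0735), at 9.62, 10.04 and 10.20 with si-EZH2, 10.58, 10.47 and 10.55 with T350A and 11.24, 11.12 and 11.09 with si-Control, so the 3 groups were separate. ADAMTS1 differed by 0.28 (SE 0.10), MMP2 by -0.29 (SE 0.11) and MMP16 by -0.49 (SE 0.16).

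Of 16 BMP pathway genes measured, 0 were called, and 3 were higher and 4 lower without overlap. The target genes ID3 and ID1, which inhibit helix-loop-helix factors, differed by 0.51 (SE 0.09, adjusted p = 0.0504) and 0.46 (SE 0.12, adjusted p = 0.126). ID3 read 10.04, 9.99 and 9.91 with si-EZH2 and 10.59, 10.45 and 10.43 with T350A. The activin antagonist follistatin (FST) differed by -0.47 (SE 0.10, adjusted p = 0.0626), at 11.20, 11.16 and 11.20 against 10.69, 10.75 and 10.71. INHBA, a subunit of activin, was detected on 3 si-EZH2 arrays and 0 T350A arrays and was at least 1.27-fold lower (adjusted p = 0.0607). In the contractile and TGF-beta list 0 of 26 were called, with SMAD6 as above and the TGF-beta-binding protein VASN at 0.30 (SE 0.11).

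Of 26 Wnt pathway genes, 1 fell (RSPO3), and the median was 0.01. The ligand WNT3 differed by 0.50 (SE 0.13, adjusted p = 0.108) and the receptors FZD2 and FZD8 by 0.36 (SE 0.11) and -0.39 (SE 0.14). Of 29 secreted growth factors and their regulators, 1 fell (STC1), the median was -0.11, and 7 were lower and 4 higher without overlap. VEGFA, which drives vessel growth, differed by 0.56 (SE 0.14, adjusted p = 0.111), the EGF receptor ligand EREG by -0.47 (SE 0.11, adjusted p = 0.0979) and FGF5 by -0.47 (SE 0.15).

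Cell division genes were higher by small amounts. Of 37 G2/M genes 0 were called, 28 were above 0, 7 were higher and 0 lower without overlap, and the median was 0.15. BIRC5 (survivin), which acts in chromosome segregation, read 6.66, 7.09 and 6.66 with si-EZH2 and 7.21, 7.57 and 7.40 with T350A, a difference of 0.59 (SE 0.13, adjusted p = 0.0799). NUSAP1 differed by 0.40 (SE 0.15), the transcription factor FOXM1 by 0.34 (SE 0.13) and the kinase PBK by 0.32 (SE 0.10). The list mean was -0.10, 0.21 and -0.11 on the si-EZH2 arrays and 0.14, 0.11 and 0.15 on the T350A arrays. Replicate 2 of si-EZH2 lay above all 3 T350A arrays, so the groups overlapped. Wild-type EZH2 gave 0.44, 0.45 and 0.40, and si-Control gave 0.24, 0.27 and 0.27.

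Replication and cell cycle control genes held no calls. Of 35 DNA replication and nucleotide synthesis genes 0 were called, with a median of 0.02, DUT at 0.29 (SE 0.10), GINS2 at 0.28 (SE 0.11) and TK1 at 0.27 (SE 0.11). Of 18 G1 genes 0 were called, with CCND2 at -0.44 (SE 0.16) and SKP2 at 0.27 (SE 0.11). Among 7 CDK inhibitors 0 were called, with CDKN3 at 0.39 (SE 0.10) and CDKN2A, the p16 locus that PRC2 is known to silence, at 0.41 (SE 0.12, adjusted p = 0.167). CDKN2A read 5.92, 5.73 and 5.63 with si-EZH2 and 6.08, 6.25 and 6.21 with T350A. Of 24 p53 target genes 0 were called, with a median of -0.03.

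**Figure D5:**
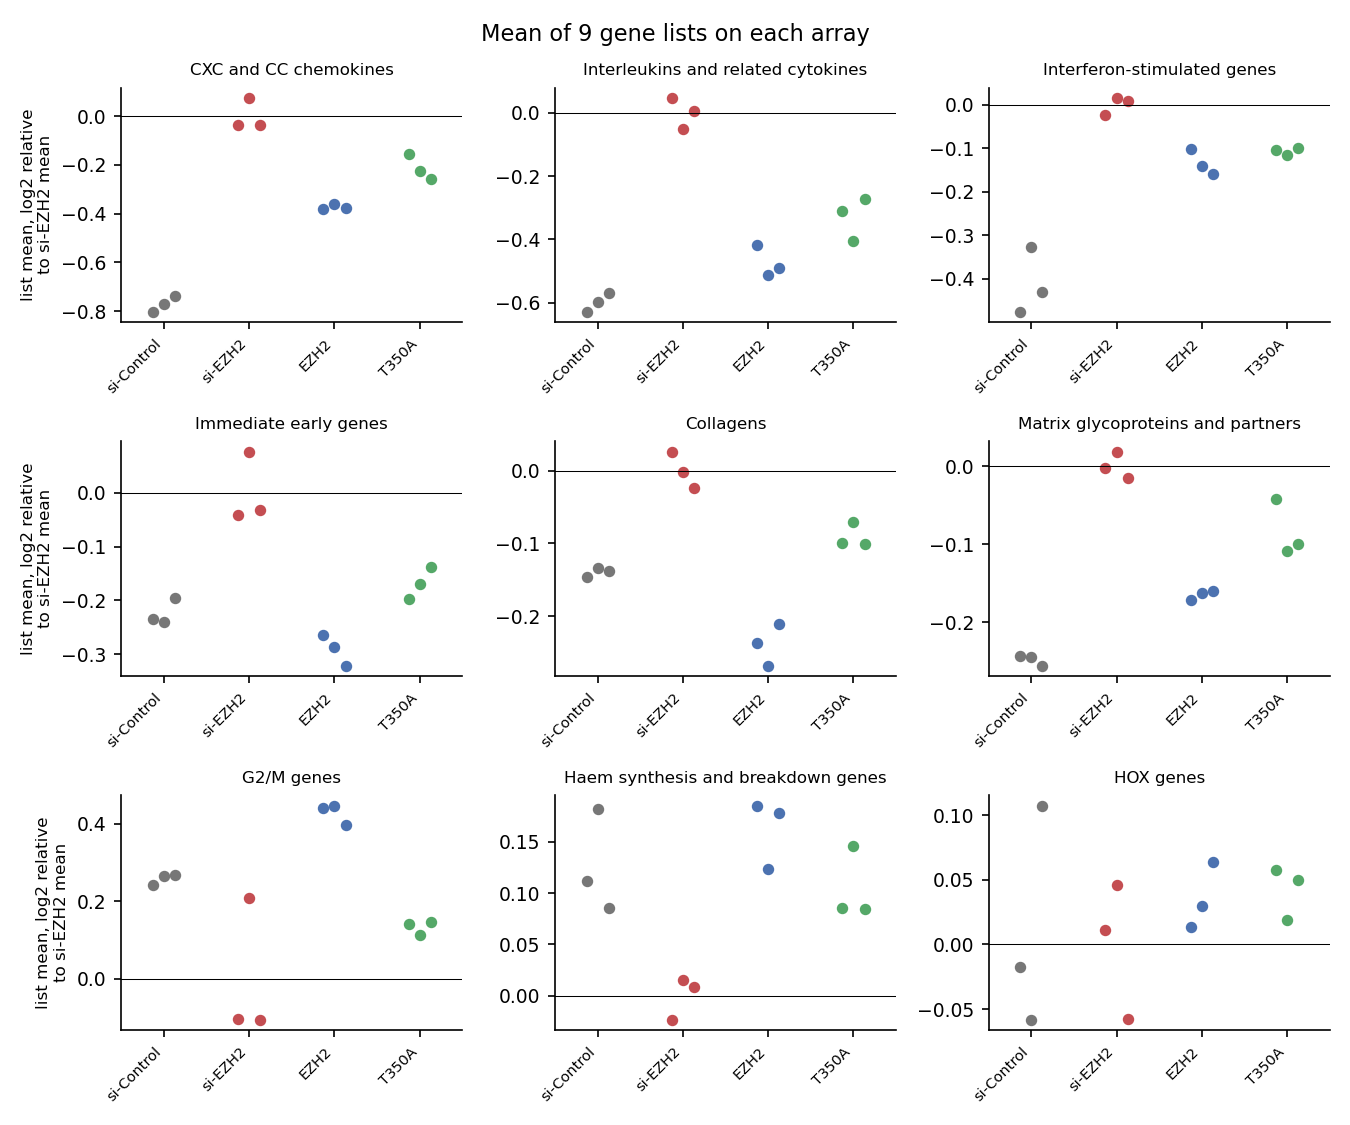
Mean over the members of 9 gene lists on each array (points, log2 relative to the average of the si-EZH2 arrays) in the 4 groups. The T350A arrays are below the si-EZH2 arrays for chemokines, interleukins, interferon-stimulated, immediate early, collagen and matrix glycoprotein genes, above them for haem genes, and overlap the si-EZH2 arrays for G2/M and HOX genes.

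Genes known as Polycomb targets held no calls. Of 13 HOX genes measured 0 were called, with a median of 0.06, HOXD11 at 0.37 (SE 0.11, adjusted p = 0.155) and HOXC4 at 0.35 (SE 0.13). The HOX median was -0.00674 without si-EZH2 replicate 2, and 0.02 without si-EZH2 replicate 1 or T350A replicate 2. It was 0.23 under a stricter filter that left 5 of the 13 genes. Of 28 developmental regulators 0 were called, with a median of -0.05, TBX2 at -0.36 (SE 0.11), DLX1 at 0.31 (SE 0.11), SOX9 at 0.29 (SE 0.10) and IRX5 at 0.21 (SE 0.09). Of 16 genes reported as repressed by EZH2 0 were called, 5 were above 0 and 11 below, and the median was -0.06. The highest of these was CDKN2A at 0.41 (limma adjusted p = 0.167), and CDKN1C differed by 0.23 (SE 0.12). Of 14 PRC1 subunits 0 were called, with CBX6 at 0.31 (SE 0.10). The unadjusted p was under 0.05 for 2, 4, 1 and 2 members of these lists in turn, against 14.8% of all genes. Of the 39 HOX genes and 54 developmental regulators listed, 26 of each were below the filter and have no value here.

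Metabolic and housekeeping lists held few calls. Of 13 haem genes 1 rose (UROS) and 3 were higher without overlap, with a median of 0.14 (0.09 without T350A replicate 2), PPOX at 0.32 (SE 0.12) and ALAD at 0.18 (SE 0.10). Of 23 zinc and metal genes 1 fell (SLC39A8), with a median of -0.09, while the transporters SLC39A14 and SLC39A4 differed by -0.28 (SE 0.13) and 0.32 (SE 0.12). Of 41 ER to Golgi and SNARE genes 1 fell (YKT6), and 6 were lower and 0 higher without overlap. Those without overlap made up 14.6% of the list, beside 9.82% higher and 11.1% lower over all genes. Members with lower values included the coat proteins SEC24D at -0.45 (SE 0.14) and COPB1 at -0.32 (SE 0.11) and the SNARE GOSR1 at -0.37 (SE 0.16).

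In 30 hypoxia and glycolysis genes 0 were called, with ALDOC at 0.37 (SE 0.10). In 10 prostaglandin genes 0 were called, with PTGES2 at 0.41 (SE 0.10), PTGIS at -0.37 (SE 0.12) and PTGS2, the inducible cyclooxygenase, at -0.26 (SE 0.11). Among 23 integrin and junction genes 0 were called, with the tight junction genes CLDN1 at -0.53 (SE 0.13) and TJP1 at -0.45 (SE 0.12) and the integrin ITGAV at -0.40 (SE 0.10). The medians for ribosomal proteins (37 genes), oxidative phosphorylation (35), proteasome (25), lysosome (25), cholesterol synthesis (30), unfolded protein response (28), heat shock (14) and core histones (18) lay between -0.03 and 0.05, with 0 calls in each.

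The difference between mutant and wild-type EZH2 was tested for the same genes, since both re-expressions were set against the same 3 si-EZH2 arrays. In T350A minus EZH2 re-expression, 2 probes were called (0.00858%), both lower with the mutant, and the unadjusted p was under 0.05 for 2050 probes (8.79%). One was the second EZH2 probe, at 8.50, 8.46 and 8.47 with the wild type, a difference of -1.29 (SE 0.12, limma adjusted p = 0.000254). The first EZH2 probe read 8.46, 8.62 and 8.57 with the wild type, a difference of -0.56 (adjusted p = 0.211). The amount of EZH2 transcript therefore differed between the re-expressions, and its part in the values that follow was not tested.

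None of the genes named above other than EZH2 passed the test of mutant against wild type. For CXCL8 the mutant arrays were higher by 0.62 (95% interval 0.41 to 0.83, adjusted p = 0.0637), and the wild-type arrays read 10.32, 10.37 and 10.40. IL24 differed by 0.39 (0.14 to 0.65) and TNFSF18 by 0.64 (0.37 to 0.91), with the mutant arrays higher in both. YKT6 differed by -0.63 (-0.87 to -0.40, adjusted p = 0.0918) and RSPO3 by -0.53 (-0.88 to -0.17), and in both the mutant arrays were lower. Among the other called probes, intervals left out 0 with the mutant higher for MGP (0.12 to 0.52 and 0.07 to 0.50 on its probes), SOD3 (0.05 to 0.49), the second CXCL8 probe (0.32 to 0.86) and SLC25A24 (0.01 to 0.56). With the mutant lower they did so for PTPRN (-0.64 to -0.14) and MYO9A (-0.42 to -0.04). Several genes named without a call had such intervals too, and not all are listed. Among them, TK1 (-0.89 to -0.42, limma adjusted p = 0.0815) and ZEB1 (-0.76 to -0.07) were lower with the mutant. CDKL2 (0.20 to 0.82), VASN (0.15 to 0.60) and COL6A1 (0.12 to 0.64) were higher. The intervals are not adjusted for the number of probes.

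Intervals around 0 were found for SLC39A8 (-0.16 to 0.29), IL1A (-0.17 to 0.31), STC1 (-0.35 to 0.08), ALDH4A1 (-0.24 to 0.23), UROS (-0.12 to 0.32), PSPH (-0.28 to 0.18), RNFT2 (-0.49 to 0.01), SS18 (-0.25 to 0.31) and AFF4 (-0.24 to 0.19). For these, differences inside the interval were not excluded. The median of the 37 G2/M genes in mutant minus wild type was -0.32, beside -0.00172 for all genes. None of them was called, and 0 of all 12640 genes were called in that comparison. The unadjusted limma p was under 0.05 for 19 of the 37, against 8.79% of all probes tested, a share of probes and not of genes. In a separate fit with 1 probe per gene it was under 0.05 for 1264 of 12640 genes.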

How the data were processed

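Per the file headers, the deposited non-normalized table holds 1 intensity per probe and array on a linear scale with a detection p-value beside it. A second deposited table holds the authors' normalized intensity values, made by a method not given in the sources used here. Intensities were background-corrected with normexp (offset 16, background from the detection p-values), quantile-normalised and put on the log2 scale (limma 3.58.1, R 4.3.3). Probes detected (p under 0.05) by 3 or more of the 12 arrays were fitted with 1 mean per group over all 12 arrays, with moderated tests, 2-sided, and Benjamini-Hochberg adjustment over 23313 probes. Errors on differences are limma standard errors. A single symbol was given for 30113 probes, several for 8 and none for 17110, and symbols were updated through gene IDs. For lists the probe with the highest mean stood for a gene, and 955 of 1171 entries were measured.

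Folds written "at least" compare with the detection limit of each array, because no array of the dimmer group detected the probe. Named genes were every called gene, the 12 highest and 12 lowest genes without overlap, up to 4 members of a list with the smallest p, PRC2 subunits and markers. The members and lists were chosen with earlier results of these data known. Promoter motifs were searched in RefSeq windows with Python, which also drew the figures. Alternatives were another offset, no background correction, median scaling, the authors' values, no filter and a stricter filter, limma-trend, only the groups compared, the replicate block, chip section, a fold threshold, testing 1 probe per gene, and omitting single arrays. The fit was tested on simulated data.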

Additional observations from a re-analysis of the deposited data

Results flagged for a closer look

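Values for 2 probes differed between the re-expression groups in the test of mutant against wild type. On the second EZH2 probe, T350A re-expression minus EZH2 re-expression was -1.29, as given above. On a probe of COG5, a subunit of a Golgi tethering complex, it was -0.83 (SE 0.10, limma adjusted p = 0.00527), and the gene was named after its values were seen. COG5 read 7.31, 7.57 and 7.41 with si-EZH2, 8.03, 8.04 and 7.98 with wild-type EZH2 and 7.17, 7.23 and 7.16 with T350A, and T350A minus si-EZH2 was -0.25 (adjusted p = 0.290). The other COG5 probes were not called in the test of mutant against wild type, so that call rests on this probe alone. One of them was brighter (mean level 8.065, against 7.63 for the called probe). Between T350A and si-EZH2 the other probes differed by -0.25 and -0.03, the latter on the brighter probe.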

How the results depend on the processing

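The number of called probes in T350A re-expression minus si-EZH2, 24 as reported, moved with many settings, and the cause was not tested. It was 420 with an offset of 50, 335 without background correction, 379 with the authors' values (57.0% higher, against 45.8%), 407 with limma-trend and robust moderation, 273 under the stricter filter, 99 with 1 probe per gene and 54 with no filter. All 24 were among the calls with the offset, without background correction, with the authors' values and with limma-trend and robust moderation. The count was 12 with the replicate block, 15 with chip section and 3 with only the groups compared. Same-numbered arrays of both groups had correlations of 0.00159, 0.0157 and 0.0709 between their deviations, and the other pairs had -0.06 to 0.04. With 3 arrays per group, these values cannot tell whether same-numbered arrays shared a culture or batch. Leaving out each array gave 5 to 31 calls. The count was 5 without si-EZH2 replicate 1, 8 without its replicate 3, 6 without T350A replicate 2 and 10 without its replicate 1, 9 without si-Control replicate 3, and 11, 14 and 9 when replicates 1, 2 and 3 of EZH2 re-expression were omitted in turn. Calls for both EZH2 probes, IL24, and 1 probe each of CXCL8 and MGP held in all 12 of these fits. IL1A was called in 5 of them, STC1 and SLC39A8 in 7, ALDH4A1 in 8 and RNFT2 in 6, and RSPO3, YKT6, UROS, SS18, AFF4 and PTPRN in 1. No gene named in the report changed direction under these alternatives, and neither did the medians of the chemokine, interleukin, interferon-stimulated, immediate early, collagen, matrix glycoprotein, NF-kappaB and G2/M lists. Their sizes moved: over the alternatives the NF-kappaB median ran from -0.16 to -0.04, the chemokine median from -0.32 to -0.15, the interleukin median from -0.35 to -0.15 and the G2/M median from 0.09 to 0.20. The HOX median ran from -0.00674 to 0.23, the latter under the stricter filter, which left 5 of the 13 genes.

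For T350A minus EZH2 re-expression, 2 calls as reported, the count was 43 with an offset of 50, 29 without background correction, 32 with the authors' values, 4 with no filter, 14 under the stricter filter, 50 with limma-trend and robust moderation and 6 with 1 probe per gene. Leaving out each array gave 1 to 3, with 1 call without EZH2 re-expression replicate 1 and without T350A replicates 1 or 3. Dim probes had wider errors (median SE 0.14 for genes with a mean level under 6, against 0.11 at 10 or more).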
